A study of Rattus norvegicus with 36 samples.

Results

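The transcripts described here are those of 7 antimicrobial genes of the intestinal epithelium, *Defa24*, *Lyz2*, *Mmp7*, *Pla2g2a*, *Reg3a*, *Reg3b* and *Reg3g*, in the distal ileum and proximal colon of UCD-T2DM rats. They were chosen by gene symbol, and each has 1 row among the 24773 genes counted. In ileum all 7 passed the filter on low counts. In colon 6 passed, and *Reg3a*, with 10 of 18 libraries at 0, did not.

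UCD-T2DM rats are an obese line that develops type 2 diabetes spontaneously. Male rats were compared in 3 groups of 6. ND rats, which the labels also call PD, had no diabetes and were 70 days old. D1M rats (also labelled RD) were 168 to 172 days old and had had diabetes for 22 to 23 days, and D3M rats (also labelled LD) were 172 to 173 days old with untreated diabetes for 88 to 116 days. All 3 groups are of the same line, for which no genetically matched control exists, and the ND rats were younger, so age and diabetes cannot be told apart in any comparison with ND. Fasting glucose was 85.6 to 101.6 mg/dl in ND, 93.6 to 178.6 mg/dl in D1M and 165 to 330.6 mg/dl in D3M rats. Whole tissue from each rat gave 1 polyA RNA library per site, and the counts per library came to 12279059 to 21510043 in ileum and 10024041 to 18299050 in colon. Levels are given in CPM, the count of a gene scaled to its library's size by the trimmed mean of M values.

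Paneth cells sit at the base of the small intestinal crypts and release antimicrobial proteins into the crypt lumen, whereas the healthy proximal colon holds few or none. *Defa24* encodes an alpha defensin, a small peptide that disrupts bacterial membranes, and *Mmp7* a metalloproteinase that in mice cuts alpha defensin precursors into their active form. *Lyz2* encodes a lysozyme, which cleaves bacterial cell walls and is also made by macrophages, and *Pla2g2a* encodes a secreted phospholipase that attacks bacterial membranes. *Reg3a*, *Reg3b* and *Reg3g* encode secreted C-type lectins made by enterocytes as well as Paneth cells, and in mice *Reg3b* and *Reg3g* are induced by bacteria through interleukin-22 with Stat3 and through Myd88.

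On rn6, the build of the deposited table, the Reg3 genes lie close together on chromosome 4. *Reg3b* (ENSRNOG00000006151) is at chr4:109467272-109470510 on the plus strand, *Reg3a* (ENSRNOG00000006360) follows at chr4:109477920-109480659 on the plus strand, and *Reg3g* (ENSRNOG00000006579) is at chr4:109529679-109532234 on the minus strand. The others are apart from them: *Defa24* (ENSRNOG00000030524) at chr16:75345086-75346122 (minus), *Lyz2* (ENSRNOG00000005825) at chr7:60335969-60341264 (minus), *Mmp7* (ENSRNOG00000010507) at chr8:5893249-5901049 (plus) and *Pla2g2a* (ENSRNOG00000016945) at chr5:157282669-157285328 (plus).

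The promoters of the 3 Reg3 genes are shown because these genes varied together across rats, and that of *Mmp7* because it belongs to the set of Paneth cell genes that varied apart from them. They are RefSeq sequences of the build GRCr8, from 250 bases before to 50 bases after the start of each gene, 5′ to 3′ on the gene's strand. RefSeq promoters were matched by symbol for 6 of the 7 genes. RefSeq lists a pair of starts for *Reg3a*, and the window of the upstream one is shown. Capitals mark matches on either strand to 4 motifs, whose letters are given with the matches: TATA box, Stat, Tcf and AP-1. Coordinates are those of GRCr8 and differ from the rn6 coordinates above.
Reg3a (chr4:112430147-112430446, plus strand): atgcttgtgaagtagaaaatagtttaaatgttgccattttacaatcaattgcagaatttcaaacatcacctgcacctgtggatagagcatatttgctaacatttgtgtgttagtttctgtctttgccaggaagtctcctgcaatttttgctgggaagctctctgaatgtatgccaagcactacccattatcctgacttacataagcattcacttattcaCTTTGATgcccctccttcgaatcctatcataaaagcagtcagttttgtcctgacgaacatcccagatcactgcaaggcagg
Reg3b (chr4:112419526-112419825, plus strand): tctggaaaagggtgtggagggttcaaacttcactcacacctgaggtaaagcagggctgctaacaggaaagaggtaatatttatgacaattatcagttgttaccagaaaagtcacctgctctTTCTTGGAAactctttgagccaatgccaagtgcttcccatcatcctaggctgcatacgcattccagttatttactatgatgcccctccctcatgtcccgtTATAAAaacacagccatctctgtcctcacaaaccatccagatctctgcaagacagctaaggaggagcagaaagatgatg
Reg3g (chr4:112484689-112484988, minus strand): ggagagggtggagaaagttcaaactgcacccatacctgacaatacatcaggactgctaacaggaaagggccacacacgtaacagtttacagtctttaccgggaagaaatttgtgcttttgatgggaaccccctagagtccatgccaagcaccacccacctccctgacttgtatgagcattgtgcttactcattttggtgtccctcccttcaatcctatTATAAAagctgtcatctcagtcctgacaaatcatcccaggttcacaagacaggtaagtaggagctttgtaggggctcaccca
Mmp7 (chr8:13132793-13133092, plus strand): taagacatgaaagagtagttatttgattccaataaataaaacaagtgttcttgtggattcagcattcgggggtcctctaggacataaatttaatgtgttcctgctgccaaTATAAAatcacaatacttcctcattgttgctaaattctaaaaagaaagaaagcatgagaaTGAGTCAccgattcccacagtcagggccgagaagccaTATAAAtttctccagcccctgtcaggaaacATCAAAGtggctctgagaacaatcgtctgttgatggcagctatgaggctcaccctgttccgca

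A TATA box stood 29 bases before the start of *Reg3b* and 32 bases before that of *Reg3g*, and at 43 and 140 bases in *Mmp7*. TATAAA occurs in 14.3% of 27457 rat promoters of this length. The Stat motif TTCNNNGAA, bound by the factors through which interleukin-22 acts, was matched only in the *Reg3b* window among the 6, 129 bases before the start, against 8.68% of all promoters. The Tcf motif CTTTGAT, bound by the factors at the end of the Wnt pathway, was matched in *Reg3a*, 31 bases before the start, and on the opposite strand in *Mmp7*, 13 bases before it, against 3.62% of all promoters. *Mmp7* also held the AP-1 motif TGANTCA at 80 bases, present in 7.33% of promoters. CAGCTG (the E box, 15.1% of promoters) was matched in *Pla2g2a* and *Lyz2*, and TTGCNNAA (C/EBP, 10.5%) in *Reg3a*, *Lyz2* and *Mmp7*. Aligned over the same window, the Reg3 promoters were 57.7 to 64.4% identical in 3 pairs, with *Reg3b* and *Reg3g* the closest, and the other 12 pairs were 44.5 to 48.6% identical. These matches are descriptions of the sequence and were not tested as binding sites.

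All 7 genes were more abundant in ileum than in colon. In a fit over all 36 libraries (edgeR quasi-likelihood test with flow cell as a term, false discovery rate, FDR, below 0.05 over 13697 genes) 7 of 7 were called higher in ileum, where 73.2% of all genes were called in either direction and 34.5% were higher in ileum. *Defa24* had the largest log2 difference, 9.18 ± 1.15 (SE), and *Pla2g2a* the smallest, 2.37 ± 0.32. Between them stood *Reg3b* at 5.01 ± 0.70, *Reg3a* at 4.28 ± 0.47, *Reg3g* at 3.99 ± 0.62, *Mmp7* at 3.50 ± 0.40 and *Lyz2* at 2.98 ± 0.29. *Reg3a* did not pass the filter in colon alone, where 10 of 18 libraries were at 0. It passed the filter over both sites through its ileum libraries, so its call in that fit is no separate support. With no filter, 7 of 7 were called over 18153 genes. The size of the *Reg3a* difference rests on colon counts at or near the floor. The FDR lay between 9.9e-11 and 8.95e-07 for the 7 genes (edgeR). With the rat as a paired replicate block, since both sites came from the same animals, all 7 were called again, with log2 differences from 2.55 (*Pla2g2a*) to 10.71 (*Defa24*). Within each of the 3 flow cells the mean log2 level was higher in ileum for all 7 genes, by 10.3 to 11.6 for *Defa24* and by 1.79 to 2.73 for *Pla2g2a*.

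The separation of the sites differed among the genes. For *Reg3b* no colon library reached the lowest ileum library. For *Defa24*, *Lyz2* and *Mmp7* 1 colon library did, each time that of ND rat K4028, and for *Reg3g* 1 did, that of D3M rat K3980. For *Pla2g2a* 8 of 18 colon libraries lay at or above the lowest ileum library, and for *Reg3a* 2 did. *Defa24* had a median of 2604 CPM in ileum, against 0.657 CPM in colon. *Pla2g2a* had a median of 950 CPM in ileum, against 169 CPM in colon. These levels are on the scale of the fit over both sites. The 5 other alpha defensins tested were all called higher in ileum as well, with a median log2 difference of 6.90. Of 20 other genes of Paneth cell identity and secretion tested, 5 were higher in ileum and 8 higher in colon.

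**Figure D1:**
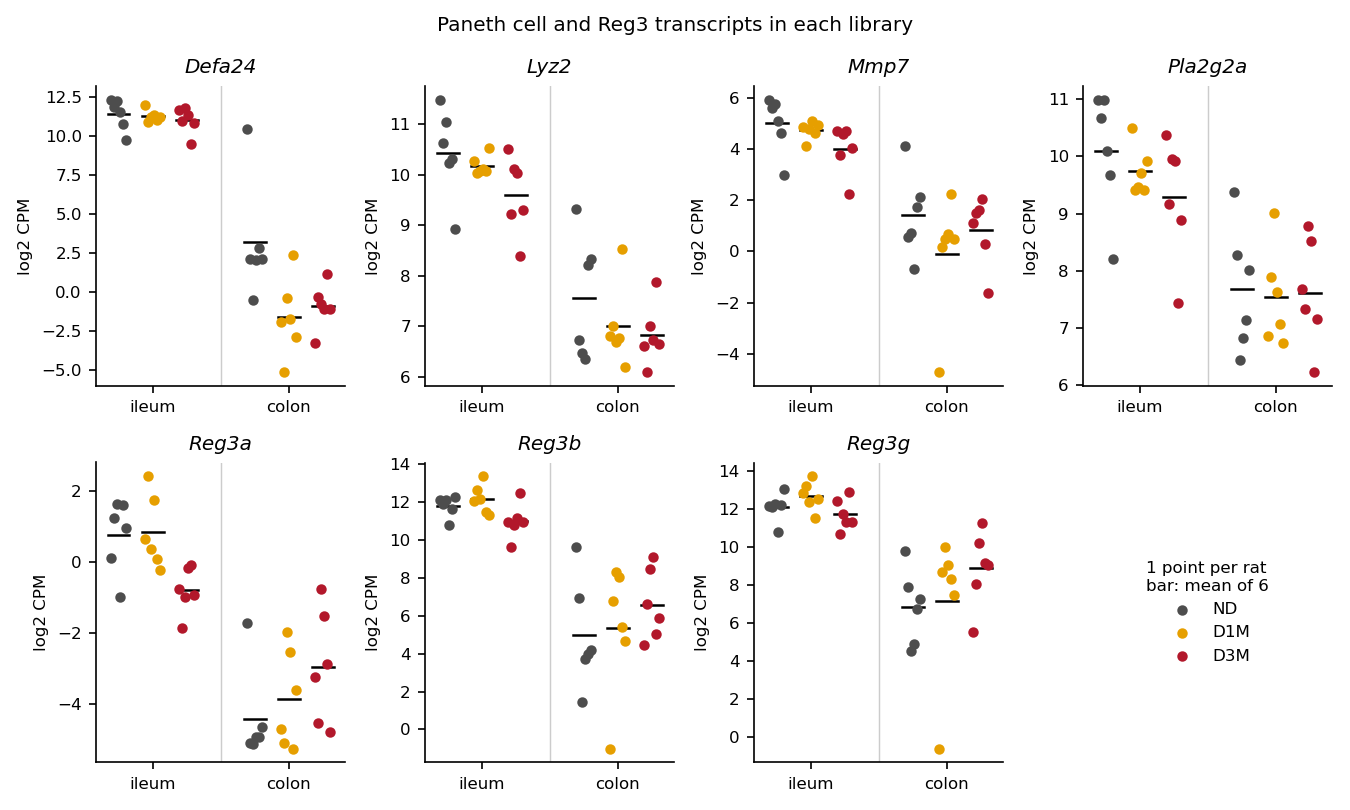
Level of each gene (log2 CPM, vertical axis) in every library of ileum (left) and colon (right), 1 point per rat, with ND in grey, D1M in orange and D3M in red, and a bar at the mean of 6. The 3 groups overlap for every gene at both sites, and the single high ND point for *Defa24* in colon is rat K4028 at 1366 CPM.

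Some libraries stood apart. The colon library of ND rat K4028 had 8706 CPM of *Fabp6*, the ileal bile acid binding protein, where no other colon library was outside 2.02 to 21.3 CPM, and it gave the highest colon level of *Defa24*, *Lyz2*, *Mmp7*, *Pla2g2a* and *Reg3b*. The ileum library of ND rat K4040 had 3616 CPM of *Car1*, a colonocyte enzyme, and that of D3M rat P762 had 1345 CPM, where the remaining ileum libraries had 2.41 to 130 CPM. The summed level of 16 B cell and follicle genes split the libraries at both sites. In colon it was 253 to 1574 CPM in 5 libraries (2 ND, 1 D1M and 2 D3M) and 26.9 to 48.1 CPM in 13, and in ileum 532 to 1489 CPM in 6 libraries (3 ND, 2 D1M and 1 D3M) and 41.7 to 71.4 CPM in 12. The 5 colon libraries had 128 to 371 CPM of *Lyz2* (median 298), against 68.0 to 635 CPM (median 104) in the 13 others. The 635 CPM was that of rat K4028. In ileum the 6 libraries had 1043 to 2864 CPM of *Lyz2* (median 1467), against 335 to 1582 CPM (median 1073) in the 12 others. The part of these cells in the *Lyz2* levels was not tested. Flow cells were not balanced, with 1 ND, 3 D1M and 4 D3M ileum libraries on the first, 3, 1 and 0 on the second, and 2 of each on the third. In colon, ND and D1M had 2 libraries on each flow cell. The D3M colon libraries were only on the second (4) and the third (2).

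In ileum no Paneth cell gene passed the test between groups. All 4 had their lowest group median in D3M, but the groups overlapped. *Defa24* ranged from 857 to 5093 CPM in ND (median 3254), from 1897 to 4078 CPM in D1M (median 2363) and from 723 to 3496 CPM in D3M rats (median 2256). The lowest D3M library lay below all others, and the 2 highest were ND libraries. *Lyz2* ranged from 489 to 2864 CPM in ND (median 1425), from 1043 to 1480 CPM in D1M (median 1091) and from 335 to 1454 CPM in D3M rats (median 836). *Mmp7* ranged from 7.81 to 60.9 CPM in ND (median 41.2), from 17.4 to 34.0 CPM in D1M (median 28.1) and from 4.69 to 26.4 CPM in D3M rats (median 20.2). Every D3M library therefore had less *Mmp7* than the median ND library, while the lowest ND library lay within the D3M range. *Pla2g2a* ranged from 295 to 2037 CPM in ND (median 1358), from 680 to 1449 CPM in D1M (median 772) and from 173 to 1323 CPM in D3M rats (median 768). In each of the 4 genes the D1M libraries spanned the narrowest range of the 3 groups.

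In D3M against ND ileum, 0 of 7 members had an unadjusted p below 0.05, where 3867 of 13026 genes did (edgeR). By FDR edgeR called 0 members, and DESeq2 and limma voom also called 0, where edgeR called 12.5% of 13026 genes. That background moved with single libraries: 1632 genes were called with all of them, 675 without D1M rat K3986, 984 without D3M rat P762, 1021 without ND rat K4028, 1024 without ND rat K4040 and up to 2437 without ND rat K4048. The log2 fold changes were −0.44 ± 0.57 (SE) for *Defa24*, −0.87 ± 0.51 for *Lyz2*, −1.12 ± 0.61 for *Mmp7* and −0.70 ± 0.69 for *Pla2g2a* (edgeR FDR 0.235 to 0.638). The 95% interval for *Mmp7* ran from −2.43 to 0.19, and that for *Defa24* from −1.66 to 0.78. All 7 members had a negative value, with a median of −0.70, where 58.4% of all genes were negative and their median was −0.08. The 7 values are not separate observations, since genes of a set varied together across the same rats (below). None of these values passed the test. Levels in whole tissue do not separate the number of Paneth cells, the RNA per Paneth cell and the RNA of other cells.

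These estimates turned on a few libraries. The ileum library of ND rat K4028 had the most of all 4 Paneth cell genes and that of D3M rat P762 the least, with that of ND rat K4048 next lowest. Without ND rat K4048, *Lyz2* (−1.45, FDR 0.0305) and *Mmp7* (−1.83, FDR 0.0141) were called lower in D3M than in ND by edgeR, and *Defa24* and *Pla2g2a* were at −1.08 and −1.44. Without ND rat K4028 the values were −0.05 for *Defa24*, −0.32 for *Lyz2*, −0.69 for *Mmp7* and −0.28 for *Pla2g2a*. Without D3M rat P762 they were 0.04 for *Defa24*, −0.45 for *Lyz2*, −0.65 for *Mmp7* and −0.13 for *Pla2g2a*. On the flow cell with 2 libraries of each group they were −1.64 for *Defa24*, −2.08 for *Lyz2*, −2.16 for *Mmp7* and −2.28 for *Pla2g2a*. Rat P762 also had colonocyte *Car1*, whose part in these values was not tested.

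The Reg3 genes had another pattern in ileum, with the highest libraries of all 3 being those of D1M rats K3988 and K3986. The remaining D1M libraries lay within the ND range for each gene. *Reg3b* ranged from 1796 to 5009 CPM in ND (median 4080), from 2531 to 10552 CPM in D1M (median 4434) and from 786 to 5732 CPM in D3M rats (median 1971). *Reg3g* ranged from 1758 to 8317 CPM in ND (median 4684), from 2907 to 13538 CPM in D1M (median 6521) and from 1616 to 7577 CPM in D3M rats (median 2952). The same D1M rat, K3988, had the most of both, and the same D3M rat, K3961, the least of all 3 Reg3 genes. *Reg3a* was rare, with 5 to 67 counts per ileum library, and ranged from 0.475 to 3.09 CPM in ND (median 2.12), from 0.837 to 5.30 CPM in D1M (median 1.38) and from 0.250 to 0.913 CPM in D3M rats (median 0.529). Its D3M range overlapped that of D1M only at its upper end.

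In D3M against D1M, rats of nearly the same age, 0 of 7 members were called in ileum by edgeR, where 2.22% of genes were called. The 289 genes called came to 6, 10, 20 and 61 without D1M rat K3989, K3988, K3978 or K3990, to 22, 74, 145 and 153 without D3M rat K3961, P780, K3980 or K3977, to 761 without D3M rat K3959 and to 532 without ND rat K4048, so the number of calls in this comparison varied with single libraries. An unadjusted p below 0.05 was found for 2490 of 13026 genes (edgeR). Of the 7, 2 had such a p, *Reg3a* at −1.46 ± 0.40 (FDR 0.0651) and *Reg3b* at −1.10 ± 0.46 (FDR 0.203), while *Reg3g* was at −0.90 ± 0.45 (FDR 0.290, edgeR). DESeq2 called 0, with no adjusted p for *Reg3a*, and limma voom called 1, *Reg3a* at −1.52 (FDR 0.0402). Without D3M rat P762, edgeR called *Reg3a* (−1.72, FDR 0.0437), and *Reg3b* was at −1.56 (FDR 0.0504). On the flow cell with 2 libraries of each group the values were −0.71 for *Reg3a*, 0.18 for *Reg3b* and −0.36 for *Reg3g*. The Paneth cell genes were between −0.14 (*Defa24*) and −0.58 (*Mmp7*) in this comparison.

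In D3M against ND ileum, *Reg3a* was at −0.91 ± 0.44 (FDR 0.177), *Reg3b* at −0.57 ± 0.49 (FDR 0.462) and *Reg3g* at −0.25 ± 0.49 (FDR 0.761, edgeR). Without the flow cell term, *Reg3a* was called at −1.72 (FDR 0.0232). In D1M against ND ileum, 0 of 7 members were called by edgeR and 0 had an unadjusted p below 0.05, with 0 called by DESeq2 and 0 by limma voom, where edgeR called 0.0154% of genes. Over all genes, 1087 of 13026 had an unadjusted p below 0.05 (edgeR). The 3 Reg3 genes had positive values, 0.55 ± 0.39 for *Reg3a*, 0.53 ± 0.47 for *Reg3b* and 0.65 ± 0.46 for *Reg3g*, and the 4 Paneth cell genes negative ones, from −0.30 (*Defa24*) to −0.54 (*Mmp7*). The 3 ileum comparisons share their libraries pairwise.

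**Figure D2:**
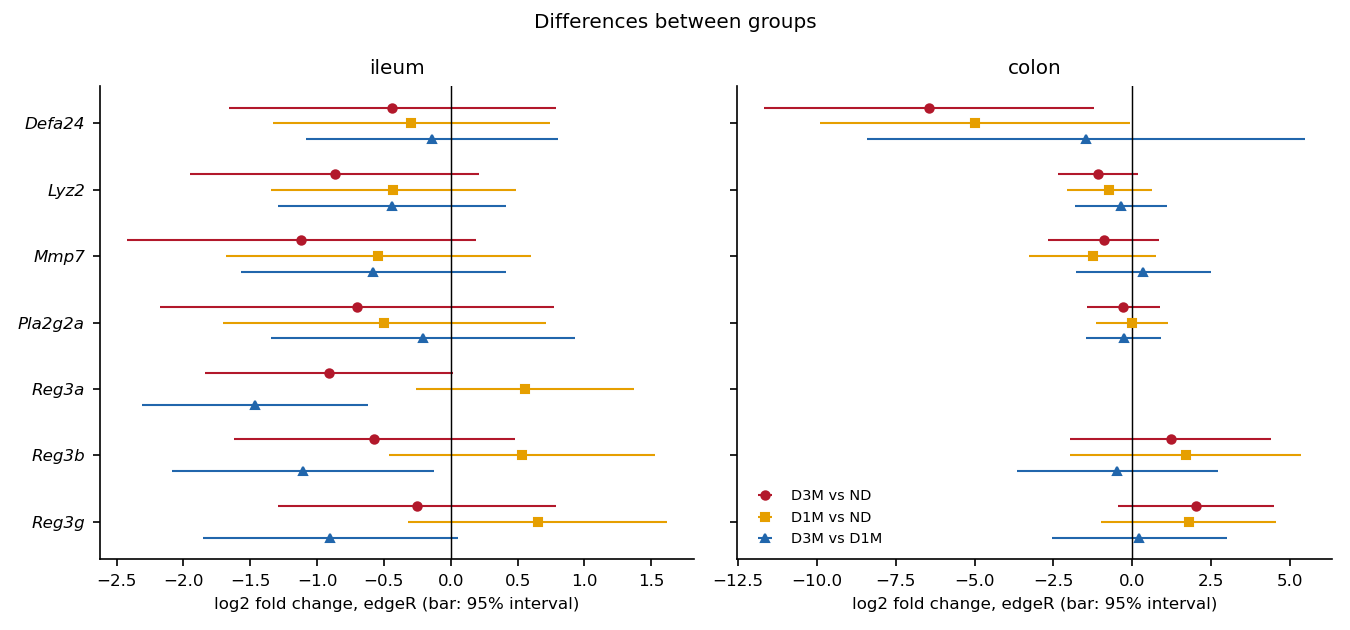
Log2 fold change of each gene (horizontal axis) with its 95% interval in D3M over ND, D1M over ND and D3M over D1M, from the edgeR fit of ileum and of colon, where *Reg3a* was not fitted. In ileum all D3M values are negative, and the interval of *Reg3a* in D3M over D1M runs from −2.31 to −0.62. In colon the widest interval is that of *Defa24* in D3M over D1M, from −8.42 to 5.48.

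Across the 18 rats, the ileal genes fell into 2 sets whose members varied together. All 6 pairs among *Defa24*, *Lyz2*, *Mmp7* and *Pla2g2a* were correlated, with Pearson's r of log2 CPM from 0.88 to 0.96 and Spearman's rho from 0.79 to 0.95 (permutation p = 1e-05 for each r, the smallest that 100000 resamples can give, and 3.5e-05 after Benjamini-Hochberg adjustment over 21 pairs). The 3 Reg3 pairs had r of 0.83 (*Reg3a* with *Reg3b*, adjusted permutation p = 5.25e-05), 0.73 (*Reg3a* with *Reg3g*, 0.001283) and 0.87 (*Reg3b* with *Reg3g*, 5.25e-05), with rho from 0.67 to 0.83. The 12 pairs across the sets had r from −0.18 to 0.25 and rho from −0.13 to 0.24, and none passed (adjusted permutation p of 0.6616 or more). D3M rat P762 shows the split: it was the lowest of 18 for all 4 Paneth cell genes, yet had 5732 CPM of *Reg3b* and 7577 CPM of *Reg3g*, the most of any D3M rat. ND rat K4048 was second lowest for the Paneth cell genes and had the most *Reg3g* of the ND rats, 8317 CPM.

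The correlations within the sets held in deviations from the group means, with r from 0.91 to 0.97 among the Paneth cell genes and from 0.70 to 0.85 among the Reg3 genes, while the pairs across had r from −0.34 to −0.09. Without the 2 rats farthest from the median, chosen anew for each pair by the level of its first gene, r was 0.76 to 0.92, 0.60 to 0.78 and −0.36 to 0.21 in these 3 kinds of pairs. Within the first flow cell (8 libraries) r was 0.84 to 0.95 among the Paneth cell genes and 0.85 to 0.98 among the Reg3 genes. Within the third (6 libraries) it was 0.93 to 0.99 and 0.82 to 0.87. The second held 4 ileum libraries and gave no value. How many of all gene pairs would pass in these ileum libraries was not determined.

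**Figure D3:**
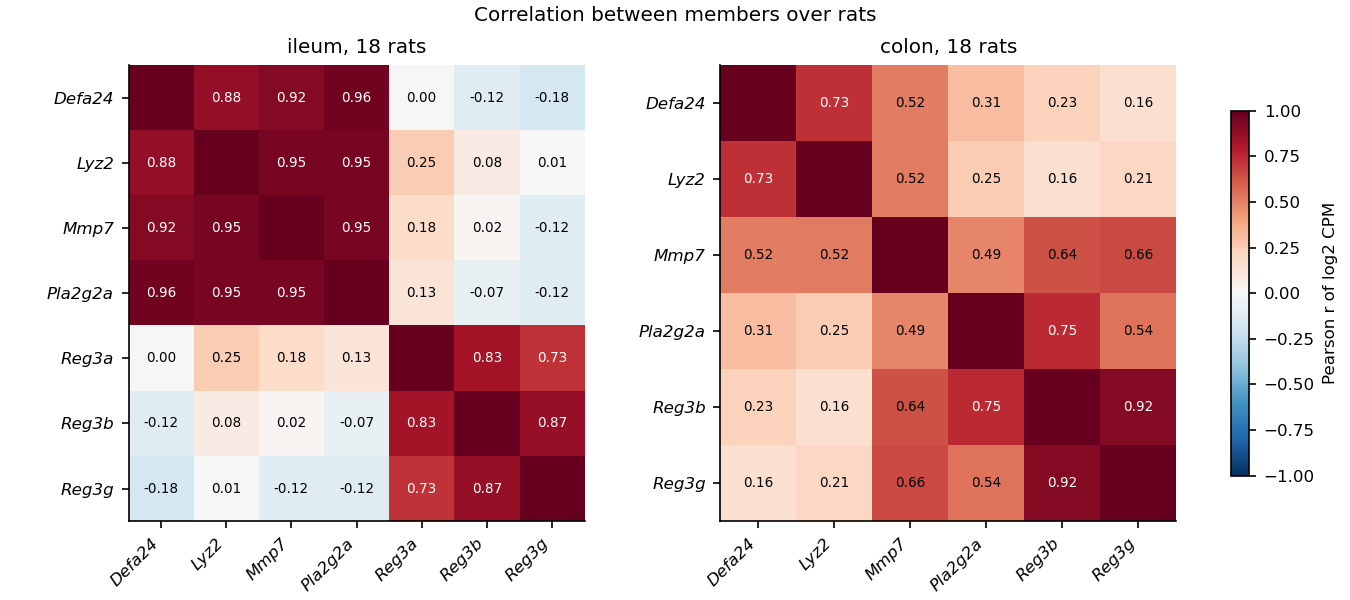
Pearson's r of log2 CPM over 18 rats for every pair of the genes, in ileum and in colon, with *Reg3a* left out in colon. In ileum the 4 Paneth cell genes (0.88 to 0.96) and the 3 Reg3 genes (0.73 to 0.87) form 2 blocks, and the 12 pairs between them lie between −0.18 and 0.25.

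**Figure D4:**
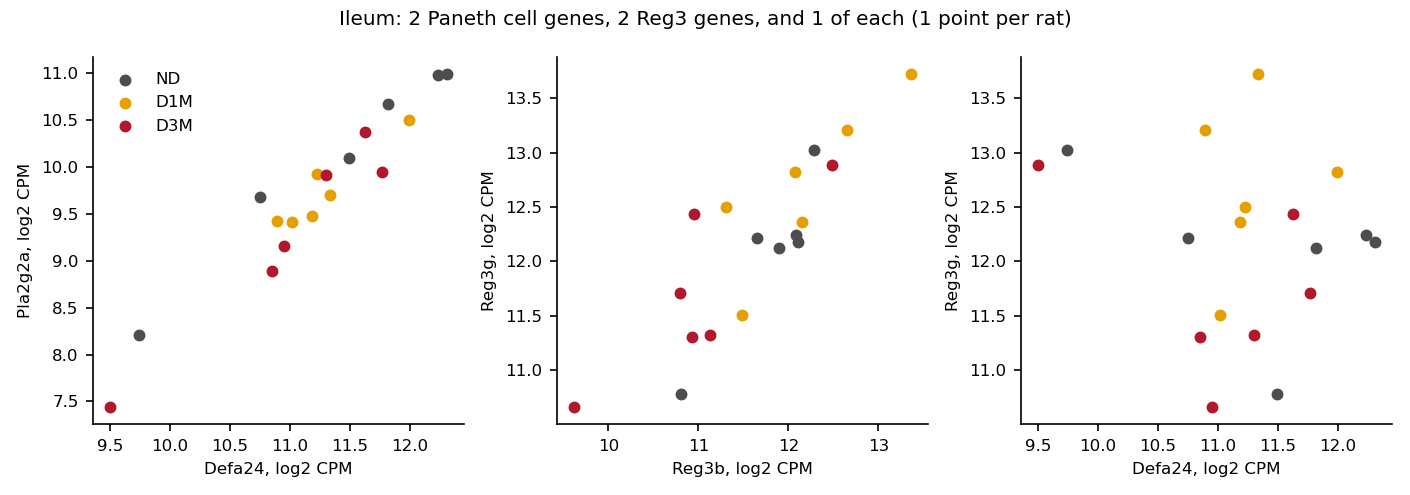
Ileum levels (log2 CPM on both axes) of *Pla2g2a* against *Defa24*, *Reg3g* against *Reg3b*, and *Reg3g* against *Defa24*, 1 point per rat, with ND in grey, D1M in orange and D3M in red. The first pair lies near a line (r = 0.96), as does the second more loosely (r = 0.87), and the third has no such order (r = −0.18).

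The genes whose ileal levels followed the members most closely, among 10868 whose log2 CPM averaged 1 or more, differed between the sets. *Defa24* was followed by other alpha defensins, *Defal1* (r = 0.98), *Defa9* (0.98) and *Defa8* (0.97), and *Pla2g2a* by *Defa8* (0.98), *Defa9* (0.98) and *Defal1* (0.97). Reads of such near-identical paralogs may be split between them, so the values of single defensins are uncertain. *Mmp7* was followed by *Habp2*, a hyaluronan-binding serine protease (r = 0.97), and *Lyz2* by *Mettl1*, a tRNA methyltransferase (0.95), and both by each other and by *Pla2g2a* (0.95 each). *Reg3a* was followed by *Flot2*, a flotillin (r = 0.84), *Reg3b* (0.82) and *Rgs10*, a regulator of G protein signalling (0.80), *Reg3b* by *Reg3g* (0.87), the Mediator subunit *Med30* (0.80) and *Flot2* (0.79), and *Reg3g* by *Reg3b* (0.87), the unnamed locus *Rn60_4_1096.3* (0.84) and *Dap* (0.82). These are correlations over 18 ileum libraries and are given as a description. They used a prior count of 2, whereas the pairs of members above used an offset of 0.5 counts, which moves r for the rare *Reg3a* slightly.

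Some genes from a list drawn up for the regulation of Reg3 expression rose in D3M ileum. Of 18 tested genes of this list, 5 rose in D3M relative to ND and 0 fell, with a median log2 fold change of 0.27, where 8.31% of all genes were higher and 4.22% lower. Among them *Stat3* rose by 0.56 ± 0.11 (FDR 0.0057), *Il10rb*, a subunit of the interleukin-22 receptor, by 0.41 ± 0.09 (FDR 0.0086), the Toll-like receptor adaptor *Myd88* by 0.40 ± 0.10 (FDR 0.0141), and the fucosyltransferase *Fut2* by 0.64 ± 0.16 (FDR 0.0188, edgeR). *Fut2* encodes an enzyme, and whether it regulates the Reg3 genes was not tested. Leaving out 1 library at a time gave 3 to 6 called genes of the list (3 without D1M rat K3986 or without ND rat K4028), with *Stat3* and *Il10rb* called in all 18 such fits and *Myd88* and *Fut2* in 17 each. The fit of only these 2 groups called 1, and the flow cell with 2 libraries of each group 0. In D3M relative to D1M, where 1.93% of genes were higher, *Il10rb* had 0.33 ± 0.08 (FDR 0.0385, edgeR), and it was called in 9 of the 18 fits that leave out 1 library. The 3 Reg3 genes themselves had negative values in both comparisons, as above.

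Of the 5 other alpha defensins 0 were called in D3M against ND ileum, with a median of −0.76. Of 19 other Paneth cell genes 1 rose, the ribonuclease *Rnase4* (1.02 ± 0.18, FDR 0.0033, edgeR), and the median was −0.32. Of 13 other epithelial antimicrobial genes 1 rose, the galectin *Lgals3* (0.73 ± 0.20, FDR 0.0292, called in 15 of the 18 fits that leave out 1 library), and of 3 other Reg genes and their receptor 0 were called. Among 12 crypt and stem cell genes *Tcf7l2*, the Wnt pathway transcription factor, rose (0.74 ± 0.16, FDR 0.0095), the crypt receptor *Ephb2* fell (−0.67 ± 0.15, FDR 0.0092, edgeR), and the median was −0.50. In D1M against ND, 0 genes of these lists were called.

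Enterocyte markers rose in the D3M ileum, while the other cell lists of this paragraph had 0 or 1 call each. The crypt and stem cell list above had 1 gene higher and 1 lower in D3M against ND. In D3M relative to ND, 8.31% of all genes were higher and 4.22% lower (edgeR). Of 12 ileal enterocyte genes 8 rose in D3M relative to ND and 5 in D3M relative to D1M, led in the first by *Apoa1* (1.33 ± 0.17), *Slc6a19* (0.98 ± 0.15), *Vil1* (0.70 ± 0.13) and *Anpep* (0.93 ± 0.18, edgeR FDR 0.000761 to 0.0056). Their summed level was 53425 to 87575 CPM in D3M, against 32659 to 51121 CPM in ND and 44214 to 58683 CPM in D1M, so that D3M and ND did not overlap. Leaving out 1 library gave 8 to 9 called enterocyte genes against ND and 0 to 6 against D1M (0 without D1M rat K3978, K3988 or K3989 or D3M rat K3961), and the fit of only D3M and ND called 2. Of 9 goblet cell genes 1 fell (*Galnt12*, −0.34 ± 0.11, FDR 0.0497), and of 12 macrophage genes 1 fell (*Cd14*, −0.68 ± 0.18, FDR 0.0212, edgeR). Of 5 colonocyte genes 1 rose (*Car4*, 1.48 ± 0.46, FDR 0.0484, edgeR). Of the 18 fits that leave out 1 library, 3 called *Galnt12*, 16 *Cd14* and 4 *Car4*. Of 16 B cell, 7 follicle epithelium, 9 smooth muscle, 5 neutrophil and 3 pancreas genes 0 were called. What part these cell types had in the members' values was not tested.

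In colon no member passed the test between groups, and the spread between rats of one group was wide. *Reg3g* ranged from 22.5 to 881 CPM in ND (median 129), from 0.607 to 1035 CPM in D1M (median 364) and from 45.4 to 2451 CPM in D3M rats (median 548). *Reg3b* ranged from 2.70 to 802 CPM in ND (median 16.9), from 0.455 to 319 CPM in D1M (median 75.9) and from 21.6 to 539 CPM in D3M rats (median 77.7). The same D1M rat, K3978, had the least of both, and the ranges of all 3 groups overlapped. *Reg3a* had 4 counts over the 6 ND libraries, 5 over the 6 D1M libraries and 15 over the 6 D3M libraries. At these counts its mean log2 CPM differed by 1.46 in D3M over ND (exact permutation test over 924 relabellings, two-sided p = 0.110), by 0.54 in D1M over ND (p = 0.513) and by 0.92 in D3M over D1M (p = 0.310).

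*Defa24* in colon ranged from 0.691 to 1366 CPM in ND (median 4.33), from 0 to 5.09 CPM in D1M (median 0.251) and from 0.0708 to 2.17 CPM in D3M rats (median 0.501). Apart from ND rat K4028 no colon library exceeded 7.10 CPM. *Lyz2* ranged from 81.5 to 635 CPM in ND (median 202), from 73.1 to 371 CPM in D1M (median 110) and from 68.0 to 233 CPM in D3M rats (median 103). *Mmp7* ranged from 0.583 to 17.2 CPM in ND (median 2.43), from 0 to 4.68 CPM in D1M (median 1.34) and from 0.288 to 4.10 CPM in D3M rats (median 2.44). *Pla2g2a* was present in every colon library, from 86.8 to 662 CPM in ND (median 200), from 106 to 516 CPM in D1M (median 167) and from 74.8 to 440 CPM in D3M rats (median 183). The groups overlapped for all 4 genes.

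Of the 6 members fitted in colon, edgeR called 0 in D3M against ND, where 0.0155% of 12906 genes were called, 0 in D1M against ND and 0 in D3M against D1M, where 0% of genes were called in each. An unadjusted p below 0.05 was found for *Defa24* alone, in D3M against ND (−6.45 ± 2.44, FDR 0.392) and in D1M against ND (−4.98 ± 2.30, FDR 0.952), and for 0 members in D3M against D1M. Of the 12906 genes, 1292 had such a p in D3M against ND, 602 in D1M against ND and 682 in D3M against D1M (edgeR). DESeq2 called *Defa24* in both comparisons with ND (−5.90, FDR 0.0458, and −6.35, FDR 0.0208) and gave no adjusted p for *Reg3b*, and limma voom called 0 members. *Defa24* passed the colon filter through its ND libraries, with 12 to 20306 counts, against 0 to 98 in D1M and 1 to 24 in D3M. The fit of only D3M and D1M left it out. Its p-values and calls against ND in colon are therefore no independent support for a difference. Without ND rat K4028, whose colon library holds the ileal *Fabp6* transcript, *Defa24* was at −2.28 in D3M against ND (FDR 0.590, edgeR). In the same comparison *Reg3b* was at 1.22 ± 1.49 and *Reg3g* at 2.02 ± 1.16 with all libraries, and at 2.51 and 2.77 without that library. *Lyz2* was at −1.09 ± 0.59 and −0.50, and *Mmp7* at −0.91 and 0.16, with all libraries and without that one. With a score of the B cell gene list as a term and all libraries kept, *Lyz2* was at −0.82.

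Of 15 pairs in colon, 6 passed with an adjusted permutation p below 0.05, led by *Reg3b* with *Reg3g* (r = 0.92, rho = 0.90, adjusted p = 0.00015) and *Reg3b* with *Pla2g2a* (r = 0.75, rho = 0.77, adjusted p = 0.002175). Without the 2 rats farthest from the median these were 0.84 and 0.78. The other pairs that passed by r were *Defa24* with *Lyz2* (0.73), *Reg3g* with *Mmp7* (0.66), *Reg3b* with *Mmp7* (0.64) and *Reg3g* with *Pla2g2a* (0.54), none of which passed by rho (adjusted permutation p from 0.0639 to 0.4332). Without the 2 farthest rats of each pair these were 0.64 for *Defa24* with *Lyz2*, 0.25 for *Reg3g* with *Mmp7*, 0.37 for *Reg3b* with *Mmp7* and 0.52 for *Reg3g* with *Pla2g2a*, so the pairs with *Mmp7* fell the most of these. Without rat K4028, 2 of 15 pairs passed. The share of all gene pairs that would pass in these colon libraries was not determined, so the counts have no background to be set against.

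The change in D3M against ND was compared between the sites by an interaction term over the 36 libraries. It called 0 of 7 members (edgeR), where 1.56% of genes were called. With the rat as a paired replicate block it also called 0 members, and 0 of all 13697 genes, against 214 without the block. Without the block, an unadjusted p below 0.05 was found for 2303 of all 13697 genes (edgeR). It was found for 2 members, *Defa24* (ileum minus colon 5.58 ± 2.33, FDR 0.211) and *Reg3a* (−2.53 ± 1.22, FDR 0.289). DESeq2 called 1, *Defa24* (5.46, FDR 0.0181), and limma voom 0. Without the libraries of K4028 colon and K4040 ileum, *Defa24* was at 1.92 and *Reg3a* at −5.63 (FDR 0.141, edgeR). K4028 held all 4 *Reg3a* counts of the ND colon libraries. Without it every ND colon library was at 0, so the size of the *Reg3a* value is not a measured difference. The Reg3 genes had negative differences, −1.77 ± 1.58 for *Reg3b* and −2.22 ± 1.29 for *Reg3g*, from negative values in ileum and positive values in colon, and neither passed the test. Among the genes of the lists, *Rnase4* had 1.01 ± 0.22 (FDR 0.0215, edgeR), a call that was lost with the rat as a replicate block (0.97, FDR 0.143) and without the libraries of K4028 colon and K4040 ileum (1.04, FDR 0.0630).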

How the data were processed

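PolyA RNA of whole distal ileum and proximal colon tissue from each rat was sequenced with a stranded kit. The authors aligned reads with STAR to rn6 and deposited raw counts per gene made in SeqMonk, with no normalization. Versions, and whether counting used strand, are not given in the sources used here. Reads of near-identical paralogs may have been split by the counting. A second table of normalized values was not used.

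The counts of 24773 genes were tested here in R 4.3.3 with edgeR 4.0.16 (TMM, filterByExpr with a minimum count of 10, robust quasi-likelihood test, Benjamini-Hochberg FDR below 0.05), per tissue over 18 libraries with group and flow cell as terms, and over all 36 libraries for differences between sites. DESeq2 1.42.0 and limma 3.58.1 (voom) were alternatives. Log2 CPM of a library used an offset of 0.5 counts, and a prior count of 2 for the search of similar genes. SE is the log2 fold change divided by the square root of F. Correlations over rats used 100000 permutations. The scripts were tested on simulated data. No pair of libraries held identical counts.

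The samples of a group are separate rats. In the check of pairing, deviations from the group means correlated between ileum and colon of a rat with r from −0.52 to 0.76 (12408 genes), above 0.1 in 6 of 18 rats, but both sites come from 1 animal, so the fit with the rat as a block is given beside the comparison of sites.

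Members and gene lists were chosen with earlier results of these data known. All 7 members are described. From each list up to 4 called genes with the smallest p are named, and for each member the 3 genes with the most similar ileal levels. Other genes named in the closing observations were chosen after their values were seen. A total of 6 promoter motifs were searched.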

Additional observations from a re-analysis of the deposited data

Results flagged for a closer look

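Of 42 groups of 6 libraries (7 genes, 3 groups, 2 sites), 5 had 1 library far from the rest by Dixon's criterion, in which the gap to the nearest library is set against the range of the group. Chance gives about 1 such group in 20. All 5 were in colon. The library of ND rat K4028 had 1366 CPM of *Defa24*, and the next ND library 7.10 CPM. The same library had 0.269 CPM of *Reg3a*, while the 5 other ND libraries were at 0. It also had 8706 CPM of the ileal gene *Fabp6*, whose part in these levels was not tested. The library of D1M rat K3989 had 371 CPM of *Lyz2*, and the next D1M library 129 CPM. The summed level of 16 B cell and follicle genes was 1574 CPM in that library and 36.2 to 48.1 CPM in the 5 other D1M colon libraries, and their part in its *Lyz2* level was not tested. The library of D1M rat K3978 had 0 CPM of *Mmp7*, where the next library had 1.10 CPM, and 0.607 CPM of *Reg3g*, where the next had 175 CPM.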

How the results depend on the processing

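The comparison of ileum with colon called all 7 genes higher in ileum under every alternative run. With the rat as a replicate block, *Defa24* was at 10.71 and *Pla2g2a* at 2.55 in ileum over colon, and in the difference of D3M against ND between the sites the block gave 1.35 for *Mmp7* and 0.55 for *Pla2g2a*, turned from negative values. The block changed no call among the 7 members, but over all 13697 genes that difference was called for 0 with the block, against 214 without it.

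The counts of members called between groups moved in a few settings, for which the cause was not tested. In ileum D3M against ND, 1 gene was called without the flow cell term (*Reg3a*), and leaving out 1 library gave 0 to 2 (2 without ND rat K4048). In ileum D3M against D1M, voom called 1 (*Reg3a*), and leaving out 1 library gave 0 to 1 (1 without D3M rat P762). In colon, DESeq2 called 1 in D3M against ND and 1 in D1M against ND, both *Defa24*, which passed the filter there through its ND libraries. In the difference between the sites, DESeq2 called 1 and the fit without the flow cell term called 1, both *Defa24* (5.46 and 7.90). In colon 2 of 15 gene pairs passed without rat K4028, and leaving out 1 library gave 2 to 7.

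Under settings other than leaving out 1 library, 531 values kept their direction and side of the threshold and 28 turned in sign, none of them past the threshold. With voom these were *Defa24* in ileum D3M against D1M (0.028), and in colon *Pla2g2a* in D1M against ND (0.29), *Defa24* (0.32) and *Reg3g* (−0.23) in D3M against D1M. With only the third flow cell (2 libraries per group), in ileum *Reg3b* (0.30) and *Reg3g* (0.66) turned in D3M against ND and *Reg3b* (0.18) in D3M against D1M. In colon *Reg3b* (−0.56) turned in D3M against ND, *Reg3b* (−3.07) and *Reg3g* (−1.43) in D1M against ND, and *Defa24* (2.45), *Reg3b* (2.52) and *Pla2g2a* (0.56) in D3M against D1M. Without the flow cell term, in colon *Reg3b* (−0.36) turned in D1M against ND, *Reg3b* (0.54) and *Pla2g2a* (0.088) in D3M against D1M, and *Mmp7* (0.039) in the difference between the sites. In colon D3M against D1M, DESeq2 gave *Defa24* at 0.45, the fit of only these 2 groups gave *Reg3b* at 0.63 and *Lyz2* at 0.18, and the B cell score gave *Defa24* at 1.35. Without the K4028 colon and K4040 ileum libraries, in colon *Mmp7* (0.16) and *Pla2g2a* (0.11) turned in D3M against ND, *Pla2g2a* (0.29) in D1M against ND and *Defa24* (0.19) in D3M against D1M, and *Lyz2* (−0.44) in the difference between the sites.

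Leaving out 1 library at a time turned 41 values, none of them past the threshold, while 1162 kept their direction and side. In ileum the ranges were −1.08 to 0.037 for *Defa24* and −0.69 to 0.35 for *Reg3g* in D3M against ND, −0.76 to 0.082 for *Defa24* and −0.85 to 0.10 for *Lyz2* in D1M against ND, and −0.32 to 0.20 for *Defa24* and −0.45 to 0.22 for *Pla2g2a* in D3M against D1M. In colon they were −1.12 to 0.16 for *Mmp7* and −0.60 to 0.11 for *Pla2g2a* in D3M against ND, −0.49 to 0.29 for *Pla2g2a* in D1M against ND, and −3.20 to 2.33 for *Defa24*, −0.22 to 0.74 for *Mmp7*, −0.65 to 0.42 for *Pla2g2a*, −1.73 to 1.47 for *Reg3b* and −0.31 to 1.27 for *Reg3g* in D3M against D1M. In the difference between the sites they were −0.33 to 0.80 for *Lyz2*, −1.26 to 0.28 for *Mmp7* and −1.12 to 0.16 for *Pla2g2a*.

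With 6 rats per group, the SE was 0.44 to 0.69 in ileum D3M against ND, and no member passed the test with all libraries. The smallest change that could be detected was not determined for these genes, so a failed test does not show that a gene was unchanged. *Reg3a* rests on 5 to 67 counts per ileum library and on 0 to 8 per colon library. No other alternative changed a call of a member. The alternatives for gene pairs and for the genes of the lists were chosen after seeing the data.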

Other observations

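Some colon libraries held other alpha defensins with little *Defa24*. At a limit of 20 CPM, *Defa8* was present in 4 ND, 0 D1M and 3 D3M colon libraries. Apart from ND rat K4028, the 6 such libraries had 22.0 to 84.7 CPM of *Defa8* (median 55.6) and 7.65 to 22.1 CPM of *Defa9*, against 0.0708 to 4.39 CPM of *Defa24*. The 11 other colon libraries had 0 to 3.78 CPM of *Defa8*. The ratio of *Defa8* to *Defa24* counts was 5.31 to 772 in those 6 libraries and 0.226 to 0.366 in all 18 ileum libraries. Those 6 libraries were chosen for their *Defa8*. In ND rat K4028 the ratio was 0.394, and in the 10 others with any *Defa24* it was 0 to 4.00. Their *Fabp6*, the ileal enterocyte gene, was at 4.04 to 21.3 CPM, and the 11 other colon libraries had 2.02 to 20.8 CPM.

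*Itln1*, which encodes a lectin of Paneth and goblet cells, fell into separate levels in ileum. A total of 10 libraries (4 ND, 2 D1M and 4 D3M) had 14.7 to 38.7 CPM, and 8 libraries (2 ND, 4 D1M and 2 D3M) had 219 to 667 CPM. *Defa24* spanned 857 to 3620 CPM in the 10 libraries and 723 to 5093 CPM in the 8. The limits and these genes were chosen after the values were seen, and no test was made.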
